A study of Mus musculus with 12 samples.

Results

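The genes described here are 36 genes of mitosis, the stage of the cell cycle in which the copied chromosomes are divided between both daughter cells. They were taken as a list of gene symbols, looked up in the gene symbols of the deposited tables for each day, and read by their Ensembl identifiers in the count matrix, where all 36 were found among 55414 gene records. They comprised 2 genes of the chromosome coat and of DNA decatenation, 6 cyclins, kinases and phosphatases of mitotic entry, 3 genes of the mitotic kinases Plk1 and Aurka with the activator Tpx2, 4 genes of the chromosomal passenger complex, 4 genes of the spindle assembly checkpoint, 6 genes of the kinetochore and centromere, 3 genes of spindle motors and microtubule proteins, 5 genes of the central spindle and cytokinesis and 3 genes of the anaphase-promoting complex and its substrates. The study asked how ligature-induced periodontitis (LIP), in which silk threads are tied around molars of anaesthetised mice, changes CD4+ T cells of the spleen. RNA of negatively selected splenic CD4+ T cells was sequenced as 12 libraries, 3 from each of 4 groups. All mice were wild-type male BALB/c mice aged 18 weeks. Healthy control mice (CTL) were anaesthetised and received no ligature. Cells of day 0 were taken uncultured, and cells of day 2 had been stimulated in culture for 2 days. The labels give the stimulus as antibodies to TCRβ and CD28, each at 1 μg/mL, together with 10 ng/mL of IL-2. The methods of the study give other concentrations of IL-2 and anti-TCRβ antibody, and the treatment labels of CTL 93, LIP 96, CTL 97 and LIP 97 of day 2 name anti-CD29 or anti-CD30 in place of anti-CD28. The libraries are numbered in the labels, with CTL 88, 89 and 94 and LIP 92, 93 and 94 on day 0, and CTL 92, 93 and 97 and LIP 90, 96 and 97 on day 2, and values are given below in this order. Whether each library came from a separate animal is not stated, so p-values measure the spread between these libraries.

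In a resting T cell the genes of mitosis are largely silent, and stimulation through the T-cell receptor with co-stimulation and IL-2 brings the cell into the cycle. Cyclin B with its kinase Cdk1 drives entry into mitosis, the kinetochores attach chromosomes to the spindle under the watch of the checkpoint, and the anaphase-promoting complex then marks securin and cyclin B for degradation so that sister chromatids separate. Most of these genes are transcribed late in the cycle, held down in resting cells by the DREAM complex and switched on by the MuvB core with B-Myb and Foxm1.

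The libraries held between 6249018 and 12866718 counts. Levels are given as CPM, the counts of a gene scaled to a common library size by the TMM factors. For a gene without counts, up to 3 counts remain possible, which is 0.269 to 0.452 CPM, and this bound takes in the error of counting alone. On day 0, 12 of the 36 genes had fewer than 10 counts in at least 1 library, so that their levels there were measured with little precision. Over the 12 libraries, Cd4 lay between 422 and 645 CPM, whereas Cd8a lay between 0.106 and 2.25 CPM and Cd8b1 between 3.29 and 10.95 CPM. The summed level of 8 T-cell markers was between 2483 and 4404 CPM in each library. In RNA of whole cell populations, fewer dividing cells and less RNA of a gene in each dividing cell cannot be told apart.

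The first comparison asked how the genes responded to stimulation. All 36 genes were higher on day 2 than on day 0 in CTL and in LIP, and all 36 passed the test in both (edgeR's quasi-likelihood test, Benjamini-Hochberg adjusted p under 0.05 over 15475 genes). Of all genes tested, 35.3% were called higher in CTL and 36.6% in LIP. The median log2 fold change of the 36 genes was 4.64 in CTL and 4.43 in LIP, whereas that of all genes tested was −0.02 and −0.00281. In each of the 36 genes, every library of day 2 lay above every library of day 0 in CTL, and the same held in LIP, as did 37.2% and 37.4% of all genes tested. Of the 36 genes, 24 had at least 10 counts in every library, and all 24 passed in both groups when the test was limited to such genes. The size of the rise in CTL depended on the CTL libraries of day 0. Without CTL 94, which was high on day 0, 17 of the 36 genes moved by over 1.5-fold and the median became 5.29, with Ube2c at 7.07, Birc5 at 6.07 and Kif11 at 5.89. Without CTL 89 the median became 4.28, Ube2c was at 4.98 and Ttk was highest at 5.37, and 2 genes, Cdc25c and Ube2c, moved by over 1.5-fold. In LIP, 1 gene, Kif20a, moved that far, to 3.495 without LIP 90 of day 2. Leaving out any other library moved 0 of the 36 genes by over 1.5-fold. Marker sums of other cells moved between the days as well. The sum of 8 CD8+ T-cell or NK-cell markers ran from 45.2 to 64.6 CPM over the 6 libraries of day 0 and from 8.60 to 23.6 CPM over those of day 2. Most of the day 0 sum was Prf1, at 26.5 to 52.6 CPM on day 0 and 2.22 to 6.93 CPM on day 2. Cd8b1 overlapped between the days, at 4.21 to 6.26 CPM and 3.29 to 10.95 CPM. The sum of 12 B-cell or plasma-cell markers ran from 109 to 143 CPM on day 0 and from 24.99 to 76.2 CPM on day 2. Of the 9 tested, 1 was called higher and 3 lower on day 2 in CTL, and 4 higher and 3 lower in LIP. The sum of 14 myeloid markers was higher on day 2, at 39.9 to 54.7 CPM against 22.8 to 37.9 CPM, and most of it was Cst3, a protease inhibitor that many cell types express, at 14.5 to 20.9 CPM on day 0 and 37.4 to 50.5 CPM on day 2. Of the 6 myeloid markers tested, Lyz2, Csf1r, Itgam and Mpo were called lower on day 2 in both groups, whereas 2 were called higher in CTL and 1 in LIP. The sum of T-cell markers ran from 2483 to 2846 CPM on day 0 and from 4007 to 4404 CPM on day 2. Most of that rise lay in Cd5, from 230 to 254 CPM to 688 to 1013 CPM, and Cd28, from 375 to 444 CPM to 905 to 1088 CPM. Cd4 overlapped between the days, at 529 to 628 CPM and 422 to 645 CPM, and so did Trac, at 120 to 187 CPM and 156 to 174 CPM. The part of these shifts in the rise of the 36 genes was not tested. The adjusted p was at most 4.94e-05 in CTL and 0.000427 in LIP, in both cases for Cdc25b. The 36 genes together summed to 331, 225 and 526 CPM in CTL and 371, 417 and 447 CPM in LIP on day 0 and 6359, 6666 and 7562 CPM in CTL and 8286, 5987 and 6466 CPM in LIP on day 2.

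**Figure D1:**
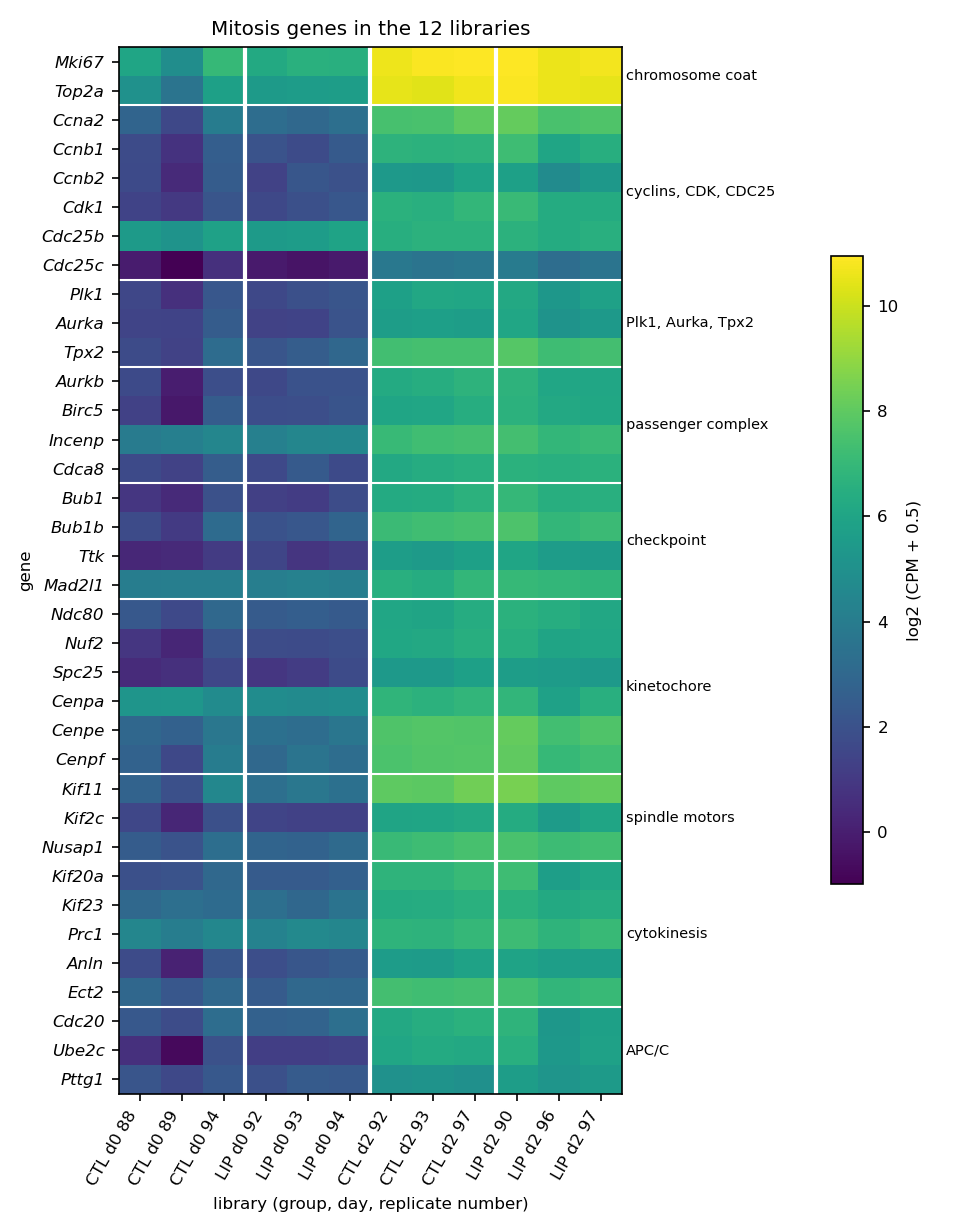
Levels of the 36 mitosis genes in each library, as log2 of CPM plus 0.5 (colour), with genes in rows grouped by role and libraries in columns grouped by day and by CTL and LIP (white lines). Every gene is brighter on day 2 than on day 0 within CTL and within LIP, and CTL 89 is the darkest of the CTL columns of day 0 in 28 of the 35 genes tested on that day.

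Since these genes moved together, the sequences before their starts were searched for the elements that the late cell cycle regulators are known to use. The element of the cell cycle genes homology region (CHR), TTTGAA, is bound by the Lin54 subunit of MuvB, the CCAAT box, CCAAT, by the factor NF-Y, and the strings TTTCCCGC and TTTGGCGC are forms of the E2F site. Windows of 250 bases before to 50 bases after the start were taken from RefSeq, in the build GRCm38.p6, and both strands were searched. A window was held for 30 of the 36 genes, and with alternative starts there were 32 windows. Tpx2, Cdc25c, Aurkb, Incenp, Kif20a and Ccna2 had no entry. TTTGAA occurred in 23 of the 32 windows (71.9%), against 17.9% of 32851 windows of all genes. Its variant TTCGAA, which is its own reverse complement, occurred in 4 windows (12.5%), against 1.56% of all. CCAAT occurred in 24 windows (75.0%), against 37.4%. The CHR element and the CCAAT box occurred together in 20 windows (62.5%), against 6.95%. Each of the E2F strings occurred in 0 of the 32 windows, against 1.07% and 0.514% of all. A single pair of different motifs overlapped in these windows. These matches describe letters in a window and do not show that a factor was bound in these cells.

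The 150 bases before the RefSeq start are shown for 5 genes that carry these elements in different arrangements, each matched exactly to GRCm39 and written 5′ to 3′ on the strand of the gene. GENCODE, from which the positions of genes below are taken, places the start of the canonical transcript further upstream in all 5, by 26 bases in Cdk1 and Top2a, 38 in Ccnb2, 70 in Cdc20 and 122 in Ccnb1, so that this many bases at the end of each stretch lie inside the transcript. The GENCODE gene of Cdk1 begins 47853 bases before the RefSeq start and takes in the whole stretch, and that of Top2a begins 47 bases before it. Capitals mark the CHR element, its variant and the CCAAT box in either orientation, and distances are counted from the first base of the match to the RefSeq start. Cdc20 held the CHR element 18 bases before the start, between CCAAT boxes at 53 and 8 bases. Cdk1 held it at 71 and 15 bases, with CCAAT boxes at 80 and 48 bases and, outside the stretch shown, at 208 bases. Top2a held it at 23 bases, the variant at 140 and 120 bases, and CCAAT boxes at 149, 98, 78 and 58 bases, and outside the stretch a CHR element at 179 bases and CCAAT boxes at 227 and 189 bases. Ccnb2 held CCAAT boxes at 87, 54 and 21 bases, and its CHR elements lay outside the stretch shown, 167 bases before and 5 bases after the start. Ccnb1 held CCAAT boxes at 99 and 67 bases and no CHR element in its window.
Cdc20 (GRCm39 chr4:118294541-118294690, minus strand): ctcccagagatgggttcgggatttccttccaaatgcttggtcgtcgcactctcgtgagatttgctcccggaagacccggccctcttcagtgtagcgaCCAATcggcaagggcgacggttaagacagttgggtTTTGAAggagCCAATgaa
Ccnb2 (GRCm39 chr9:70328837-70328986, minus strand): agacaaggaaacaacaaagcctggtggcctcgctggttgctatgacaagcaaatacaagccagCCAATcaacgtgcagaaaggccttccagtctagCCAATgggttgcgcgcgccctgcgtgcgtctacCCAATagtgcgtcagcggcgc
Cdk1 (GRCm39 chr10:69188743-69188892, minus strand): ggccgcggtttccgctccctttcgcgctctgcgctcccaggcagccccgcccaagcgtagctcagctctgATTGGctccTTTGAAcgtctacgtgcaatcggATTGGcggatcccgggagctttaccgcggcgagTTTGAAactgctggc
Top2a (GRCm39 chr11:98915016-98915165, minus strand): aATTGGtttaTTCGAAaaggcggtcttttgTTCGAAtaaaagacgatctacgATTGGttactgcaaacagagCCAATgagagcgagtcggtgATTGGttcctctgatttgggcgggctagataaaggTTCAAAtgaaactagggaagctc
Ccnb1 (GRCm39 chr13:100922995-100923144, minus strand): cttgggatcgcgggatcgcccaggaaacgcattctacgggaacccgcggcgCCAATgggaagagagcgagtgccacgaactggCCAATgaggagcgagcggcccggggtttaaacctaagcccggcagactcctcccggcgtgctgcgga

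The 2 genes of the chromosome coat and of decatenation were the most abundant per length of transcript. Mki67 (chromosome 7, 135291513 to 135318299, minus strand, GRCm39), which encodes Ki-67, the coat protein of mitotic chromosomes, was at 63.9, 28.7 and 126 CPM in CTL and 77.02, 94.7 and 92.7 CPM in LIP on day 0, and at 1575, 1848 and 1957 CPM in CTL and 1968, 1539.6 and 1721 CPM in LIP on day 2. Its lowest library was CTL 89 of day 0, and no library of day 2 came near those of day 0. The log2 fold change (± standard error) was 4.62 ± 0.39 in CTL and 4.31 ± 0.38 in LIP. Top2a (chromosome 11, 98883769 to 98915062, minus strand), the topoisomerase that untangles sister chromatids, was at 32.5, 11.4 and 55.5 CPM in CTL and 44.5, 47.8 and 48.9 CPM in LIP on day 0, and at 1469, 1379 and 1655 CPM in CTL and 1870.4, 1539 and 1455 CPM in LIP on day 2. CTL 89 was again lowest on day 0, and LIP 90 was highest on day 2. Top2a rose by 5.50 ± 0.39 on the log2 scale in CTL and by 5.11 ± 0.39 in LIP. As CPM per kilobase of the canonical transcript, the level in CTL of day 2 was 286 ± 26.8 (SD, n = 3) for Top2a and 175 ± 19.2 for Mki67, and the next of the 36 genes were Ube2c, Cenpa and Birc5 at 75.4 ± 5.99, 74.5 ± 5.04 and 73.6 ± 12.7, which did not differ beyond their spread. The lowest were Cdc25c at 6.41 ± 0.483, Anln at 9.17 ± 1.12 and Cdc25b at 12.6 ± 1.06. On day 0, Cenpa stood first with 23.3 ± 4.47 CPM per kilobase in CTL, followed by Mad2l1 with 9.19 ± 0.158. Mki67 and Top2a made up 17.8% to 34.6% of the summed CPM of the 36 genes on day 0 and 46.3% to 51.4% on day 2.

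Of the genes of mitotic entry, the cyclins and Cdk1 rose steeply and the phosphatase gene Cdc25b little. Ccnb1 (chromosome 13, 100915153 to 100923116, minus strand), which encodes cyclin B1, was at 2.86, 1.204 and 5.53 CPM in CTL and 3.72, 2.81 and 4.68 CPM in LIP on day 0, and at 104, 101 and 106 CPM in CTL and 149.8, 64.8 and 89.8 CPM in LIP on day 2. Cdk1 (chromosome 10, 69170976 to 69236595, minus strand), the kinase that cyclin B activates, was at 2.11, 1.44 and 3.95 CPM in CTL and 2.48, 3.24 and 4.28 CPM in LIP on day 0, and at 99.3, 91.1 and 119.9 CPM in CTL and 135, 80.4 and 80.5 CPM in LIP on day 2. In both genes LIP 90 was the highest library of day 2, and LIP 96 and LIP 97 lay below every CTL library of that day. Ccnb1 rose by 5.02 ± 0.39 on the log2 scale in CTL and by 4.75 ± 0.38 in LIP, and Cdk1 rose by 5.37 ± 0.31 and by 4.88 ± 0.30. Cdc25b (chromosome 2, 131027866 to 131044913, plus strand), a phosphatase that removes the inhibitory phosphates of Cdk1, was at 44.9, 35.2 and 57.2 CPM in CTL and 45.3, 48.1 and 60.1 CPM in LIP on day 0, and at 87.9, 103 and 101 CPM in CTL and 101, 80.5 and 92.8 CPM in LIP on day 2. All groups of a day overlapped, and the distance between days was the smallest of the 36 genes, with log2 fold changes of 1.09 ± 0.16 in CTL and 0.84 ± 0.16 in LIP. Its relative Cdc25c was near the limit of detection on day 0, at 0.452, 0 and 1.05 CPM in CTL and 0.413, 0.281 and 0.401 CPM in LIP, and was at 13.4, 11.6 and 12.9 CPM in CTL and 14.96, 9.18 and 11.66 CPM in LIP on day 2. The log2 fold change of Cdc25c, 4.65 ± 0.45 in CTL and 4.97 ± 0.48 in LIP, rests on 0 to 8 counts per library of day 0. Ccna2, cyclin A2 of S phase and early mitosis, rose by 4.62 ± 0.40 in CTL and by 4.65 ± 0.39 in LIP, and Ccnb2, cyclin B2, by 4.07 ± 0.40 and 3.67 ± 0.40.

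The mitotic kinases and the chromosomal passenger complex rose as well. Plk1 (chromosome 7, 121758646 to 121769108, plus strand), the polo-like kinase of mitotic entry and spindle assembly, was at 2.41, 1.08 and 4.21 CPM in CTL and 2.48, 3.24 and 3.87 CPM in LIP on day 0, and at 54.9, 71.4 and 66.1 CPM in CTL and 73.2, 39.7 and 57.1 CPM in LIP on day 2. Aurka, the kinase of spindle poles, was at 2.26, 2.17 and 5.00 CPM in CTL and 2.07, 2.11 and 3.61 CPM in LIP on day 0, and at 50.0, 52.2 and 50.3 CPM in CTL and 65.6, 35.2 and 43.9 CPM in LIP on day 2. In both, LIP 96 was the lowest library of day 2. The log2 fold changes were 4.65 ± 0.33 in CTL and 4.14 ± 0.32 in LIP for Plk1, 4.01 ± 0.30 and 4.21 ± 0.31 for Aurka, and 5.19 ± 0.35 and 5.01 ± 0.34 for Tpx2, which activates Aurka on the spindle. Aurkb (chromosome 11, 68936467 to 68944764, plus strand), the kinase of the passenger complex, which corrects wrong attachments to the spindle, was at 2.71, 0.482 and 3.16 CPM in CTL and 2.48, 3.52 and 3.47 CPM in LIP on day 0, and at 78.2, 85.4 and 104 CPM in CTL and 105, 66.0 and 67.1 CPM in LIP on day 2. Birc5 (chromosome 11, 117740040 to 117746581, plus strand), which encodes survivin, the subunit that brings the complex to the centromere, was at 1.96, 0.361 and 5.13 CPM in CTL and 3.03, 3.10 and 3.74 CPM in LIP on day 0, and at 63.8, 66.0 and 86.4 CPM in CTL and 103, 72.3 and 69.2 CPM in LIP on day 2. CTL 89 of day 0 held only 4 counts of Aurkb and 3 of Birc5. Aurkb rose by 5.43 ± 0.35 on the log2 scale in CTL and 4.65 ± 0.33 in LIP, and Birc5 by 4.87 ± 0.41 and 4.62 ± 0.40. Cdca8, borealin of the same complex, was at 2.71, 2.05 and 5.26 CPM in CTL and 2.62, 4.64 and 2.67 CPM in LIP on day 0, and at 72.6, 83.7 and 90.7 CPM in CTL and 98.9, 92.6 and 97.04 CPM in LIP on day 2. It rose by 4.62 ± 0.25 in CTL and 4.86 ± 0.25 in LIP, and all 3 LIP libraries of day 2 lay above the 3 CTL libraries. Incenp, the scaffold of the complex, rose by 3.05 ± 0.17 in CTL and 2.76 ± 0.17 in LIP.

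The checkpoint kinases were among the genes with the steepest rise. Bub1, a kinase that recruits checkpoint proteins to unattached kinetochores, was at 1.36, 0.843 and 3.42 CPM in CTL and 1.93, 1.69 and 2.94 CPM in LIP on day 0, and at 78.4, 80.3 and 102 CPM in CTL and 124, 88.8 and 93.5 CPM in LIP on day 2. Ttk, the checkpoint kinase also known as Mps1, was at 0.753, 0.843 and 1.58 CPM in CTL and 2.34, 1.27 and 1.74 CPM in LIP on day 0, and at 49.5, 44.4 and 55.5 CPM in CTL and 63.7, 47.7 and 46.9 CPM in LIP on day 2. Bub1 rose by 5.53 ± 0.31 on the log2 scale in CTL and by 5.53 ± 0.30 in LIP, and Ttk by 5.53 ± 0.25 and 4.88 ± 0.23, from 5 to 26 counts of either gene per library on day 0. Bub1b, which encodes BubR1, rose by 5.19 ± 0.38 in CTL and 4.94 ± 0.38 in LIP. Mad2l1, which encodes the checkpoint protein Mad2 that holds back Cdc20, was at 16.3, 16.6 and 16.8 CPM in CTL and 16.9, 18.7 and 16.7 CPM in LIP on day 0, and at 93.5, 84.7 and 120.5 CPM in CTL and 126, 121 and 112 CPM in LIP on day 2. The 6 libraries of day 0 lay within a narrow range, and the rise was 2.59 ± 0.13 in CTL and 2.78 ± 0.13 in LIP.

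At the kinetochore and centromere, Cenpa stood apart from the other 5 genes. Cenpa, the histone H3 variant that marks the centromere, was at 37.4, 38.4 and 26.6 CPM in CTL and 27.7, 25.9 and 27.4 CPM in LIP on day 0, and at 112, 101 and 115 CPM in CTL and 116, 57.0 and 91.3 CPM in LIP on day 2. On day 0, CTL 88 and CTL 89 lay above the other 4 libraries, and the rise to day 2 was 1.68 ± 0.21 on the log2 scale in CTL and 1.71 ± 0.21 in LIP. Ndc80, the core subunit that binds microtubules, was at 4.37, 2.65 and 7.63 CPM in CTL and 4.96, 5.49 and 4.68 CPM in LIP on day 0, and at 66.5, 61.6 and 84.4 CPM in CTL and 99.8, 86.9 and 70.4 CPM in LIP on day 2. Nuf2, its partner in the same complex, was at 1.36, 0.722 and 3.68 CPM in CTL and 2.89, 2.81 and 3.21 CPM in LIP on day 0, and at 68.6, 72.4 and 89.1 CPM in CTL and 88.3, 63.1 and 66.1 CPM in LIP on day 2. In both, the groups of each day overlapped. The rise was 3.86 ± 0.27 in CTL and 4.09 ± 0.26 in LIP for Ndc80, 5.32 ± 0.32 and 4.60 ± 0.30 for Nuf2, and 4.96 ± 0.26 and 4.55 ± 0.25 for Spc25 of the same complex. Cenpe, a kinetochore motor, and Cenpf, a large kinetochore protein, rose by 4.55 ± 0.25 and 4.63 ± 0.43 in CTL and by 4.33 ± 0.25 and 4.26 ± 0.42 in LIP.

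Among the spindle motors, Kif11, the motor that pushes spindle poles apart, was at 6.48, 3.25 and 22.2 CPM in CTL and 9.92, 12.8 and 10.2 CPM in LIP on day 0, and at 251, 244 and 331 CPM in CTL and 359.7, 256 and 277 CPM in LIP on day 2. Kif2c, a motor that takes microtubules apart at the centromere, was at 2.41, 0.722 and 3.29 CPM in CTL and 2.20, 1.97 and 2.00 CPM in LIP on day 0, and at 61.6, 65.3 and 72.8 CPM in CTL and 79.8, 47.0 and 63.5 CPM in LIP on day 2. CTL 94 was the highest library of day 0 in both. Kif11 rose by 4.69 ± 0.44 on the log2 scale in CTL and 4.76 ± 0.44 in LIP, Kif2c by 4.98 ± 0.31 and 4.93 ± 0.31, and Nusap1, a microtubule-bundling protein, by 4.68 ± 0.24 and 4.51 ± 0.24. Of the genes of cytokinesis, Kif20a, a motor of the central spindle, was at 3.31, 3.61 and 7.63 CPM in CTL and 4.96, 4.92 and 5.88 CPM in LIP on day 0, and at 107, 109 and 132 CPM in CTL and 149.8, 51.7 and 67.1 CPM in LIP on day 2. Its LIP libraries of day 2 spread from far below to above the CTL libraries. Prc1, which bundles the microtubules of the central spindle, was at 21.5, 16.1 and 22.8 CPM in CTL and 19.4, 23.9 and 21.8 CPM in LIP on day 0, and at 108, 107 and 123 CPM in CTL and 147, 107 and 132 CPM in LIP on day 2. Anln, which encodes anillin of the contractile ring, was at 2.86, 0.602 and 4.08 CPM in CTL and 3.17, 4.08 and 5.08 CPM in LIP on day 0, and at 48.0, 46.3 and 57.8 CPM in CTL and 60.2, 51.1 and 51.7 CPM in LIP on day 2. Prc1 had the smallest rise of the 5 genes, 2.49 ± 0.15 in CTL and 2.57 ± 0.15 in LIP, followed by Kif23, a motor of the spindle midzone, with 3.33 ± 0.16 and 3.18 ± 0.16. The rise was 4.57 ± 0.40 in CTL and 4.09 ± 0.39 in LIP for Kif20a, 4.36 ± 0.33 and 3.72 ± 0.30 for Anln, and 4.66 ± 0.21 and 4.35 ± 0.21 for Ect2, which acts at the cleavage furrow.

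Of the anaphase-promoting complex and its substrates, Cdc20 (chromosome 4, 118290098 to 118294610, minus strand), the co-activator that the checkpoint inhibits, was at 4.37, 2.89 and 9.08 CPM in CTL and 6.06, 6.47 and 9.89 CPM in LIP on day 0, and at 74.5, 85.6 and 97.2 CPM in CTL and 107, 39.3 and 54.4 CPM in LIP on day 2. Ube2c, the ubiquitin-conjugating enzyme of the complex, was at 1.05, 0.120 and 3.42 CPM in CTL and 1.79, 1.83 and 2.00 CPM in LIP on day 0, and at 66.9, 78.5 and 73.4 CPM in CTL and 90.9, 41.4 and 56.9 CPM in LIP on day 2. In both, LIP 96 and LIP 97 lay below and LIP 90 above the 3 CTL libraries of day 2. Cdc20 rose by 3.98 ± 0.41 on the log2 scale in CTL and 3.16 ± 0.39 in LIP, and Ube2c by 5.58 ± 0.47 and 5.06 ± 0.45. Ube2c had 1 to 26 counts per library on day 0. Pttg1 (chromosome 11, 43311071 to 43321000, minus strand), which encodes securin, the substrate that holds separase inactive, was at 3.92, 2.53 and 4.34 CPM in CTL and 3.31, 4.92 and 4.54 CPM in LIP on day 0, and at 32.4, 35.0 and 31.8 CPM in CTL and 50.0, 37.4 and 45.3 CPM in LIP on day 2. All 3 LIP libraries of day 2 lay above the 3 CTL libraries, and the rise was 3.21 ± 0.19 in CTL and 3.37 ± 0.19 in LIP.

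**Figure D2:**
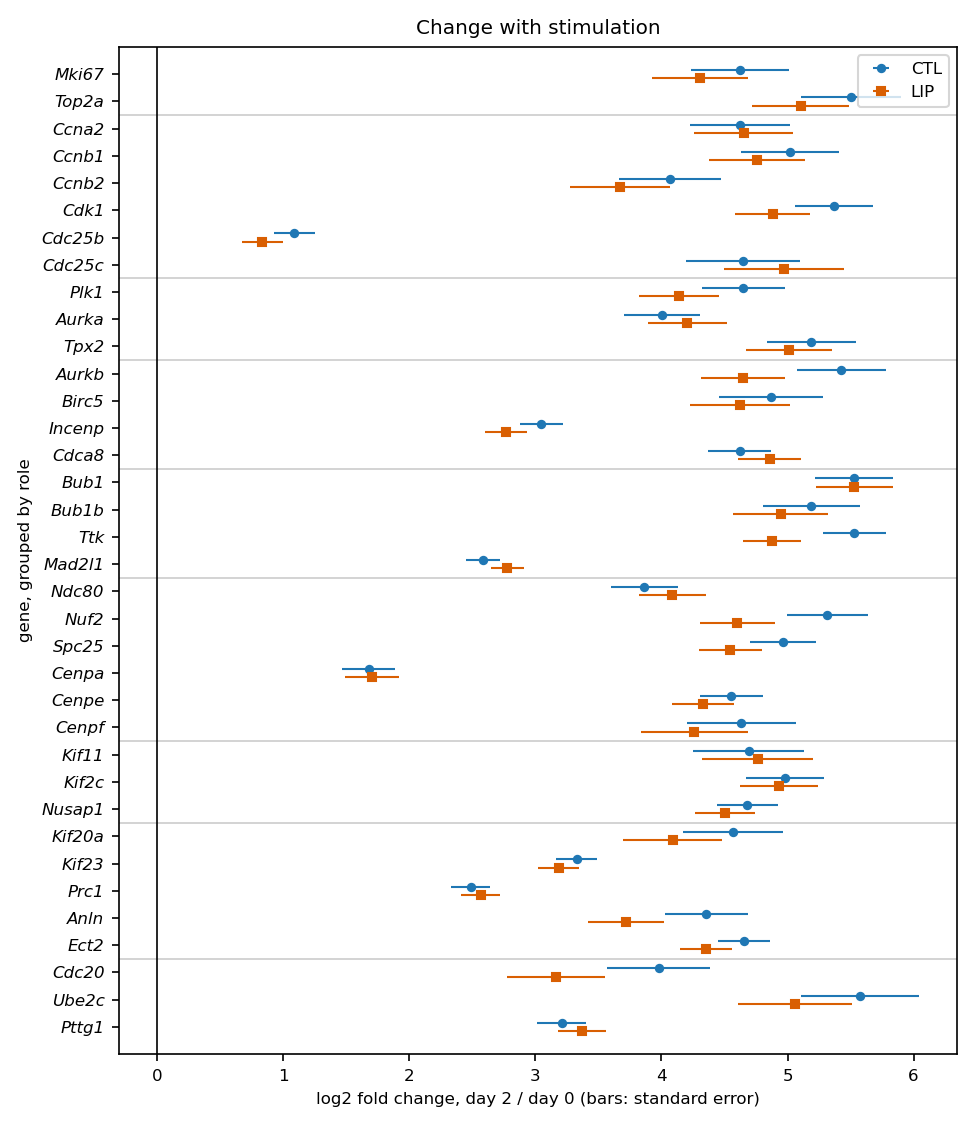
Log2 fold change of each mitosis gene from day 0 to day 2 (points) with its standard error (bars), for CTL (blue circles) and LIP (orange squares), with genes grouped by role. All points lie to the right of 0, from 1.09 for Cdc25b to 5.58 for Ube2c in CTL and from 0.84 for Cdc25b to 5.53 for Bub1 in LIP.

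Reads of some members can come from other records. An overlapping record with a mean of at least 1 CPM was annotated for 15 of the 36 genes, among them Slu7 over Pttg1, Elovl1 over Cdc20, Brd8 and Cdc23 over Kif20a and Cstf1 over Aurka, each on the opposite strand. The libraries were made with a directional kit, and whether strand was used in counting is not stated in the sources used here, so reads of such pairs may be mixed. The pseudogene record Ccnb2-ps was counted at 3.62 to 6.19 CPM on day 0 and at 1.25 to 3.28 CPM on day 2, and reads of Ccnb2 may be split with it.

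Genes of DNA replication, which act in S phase before mitosis, also rose. The 49 genes of DNA replication summed to 1279, 1158 and 1286 CPM in CTL and 1192, 1166 and 1221 CPM in LIP on day 0 and 6361, 6668 and 8316 CPM in CTL and 8346, 7582 and 6783 CPM in LIP on day 2. All 49 were called higher in CTL and in LIP, with median log2 fold changes of 2.75 and 2.68. The ratio of the summed CPM of the mitosis genes to that of the replication genes was 0.287 ± 0.1098 (SD, n = 3) in CTL and 0.345 ± 0.0298 in LIP on day 0, and 0.970 ± 0.0522 and 0.912 ± 0.108 on day 2. This ratio is a description, and its difference between days was not tested.

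**Figure D3:**
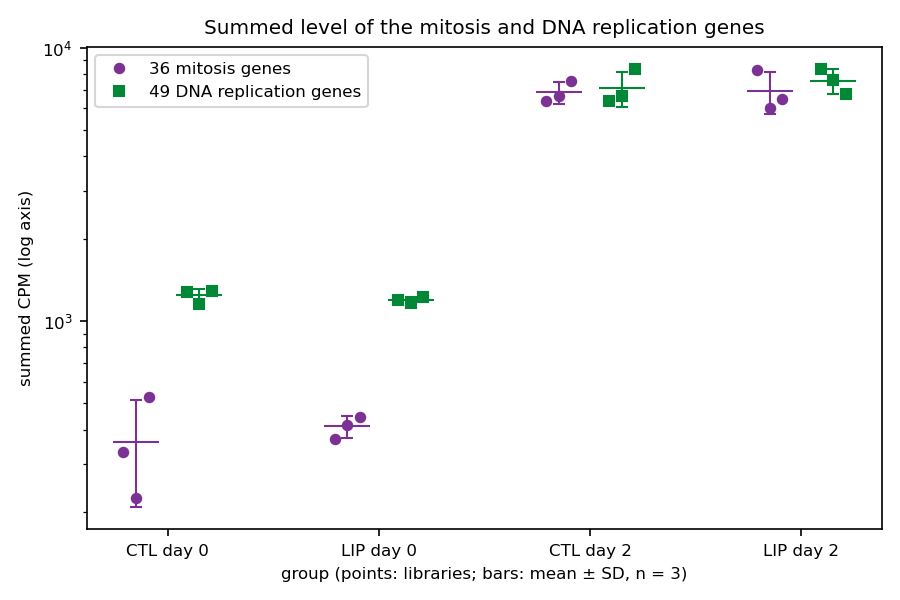
Summed CPM on a log axis of the 36 mitosis genes (purple circles) and 49 DNA replication genes (green squares) in each library, with the mean and SD of each group (bars, n = 3). The mitosis genes go from 225 to 526 CPM on day 0 to between 5987 and 8286 CPM on day 2, and CTL of day 0 is the group with the widest spread of the mitosis genes.

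The next comparison asked whether LIP changed the genes in freshly isolated cells. Of the 35 genes that could be tested on day 0, 0 were called (edgeR, adjusted p), as were 0.427% of 14064 genes, and 1 had an unadjusted p under 0.05, against 13.9% of all genes. Cdc25c had too few counts to be tested. DESeq2 called 0 as well, against 1.44% of all genes (2.9% of those given an adjusted p), but gave no adjusted p for 30 of the 35 genes. By DESeq2, 1 of the 35 genes had an unadjusted p under 0.05, against 9.31% of all genes. The median log2 fold change of LIP over CTL was 0.23, against 0.01 over all genes, with 31 genes above 0 and 4 below. The groups did not separate in any of the 35 genes, against 19.1% of all genes. The standard errors had a median of 0.39, so that differences of about this size lay within the error for most of these genes.

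The single gene with a low unadjusted p was Cenpa, at −0.33 ± 0.13 (edgeR, adjusted p = 0.304), with CTL 94 at the level of the LIP libraries. The highest log2 fold changes were those of Ttk (0.74 ± 0.43), Anln (0.74 ± 0.47) and Nuf2 (0.64 ± 0.47), and the lowest besides Cenpa were those of Aurka (−0.27 ± 0.39) and Kif2c (−0.03 ± 0.46). Of the other genes given by library above, the values were 0.28 ± 0.36 for Mki67, 0.52 ± 0.36 for Top2a, 0.24 ± 0.44 for Ccnb1, 0.42 ± 0.38 for Cdk1 and 0.33 ± 0.42 for Plk1. They were 0.61 ± 0.48 for Aurkb, 0.42 ± 0.57 for Birc5, 0.47 ± 0.36 for Cdc20, 0.17 ± 0.16 for Cdc25b and 0.26 ± 0.28 for Pttg1. Bub1 was at 0.23 ± 0.48, Mad2l1 at 0.08 ± 0.12, Ndc80 at 0.06 ± 0.33 and Cdca8 at −0.01 ± 0.38. Kif11 was at 0.04 ± 0.49, Kif20a at 0.12 ± 0.31, Prc1 at 0.12 ± 0.15 and Ube2c at 0.31 ± 0.66. Each of these lay within 2 standard errors of 0.

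The CTL libraries of day 0 differed more among themselves than the groups did. CTL 89 was the lowest CTL library in 28 of the 35 genes (34.7% of all genes tested), CTL 94 was the highest in 33 (35.1% of all), and both at once held in 28 (20.7% of all). In 21 genes all 3 LIP libraries lay between the lowest and the highest CTL library, whichever these were (22.3% of all). The ratio of the highest to the lowest library had a median of 2.83 over the 35 genes in CTL and 1.35 in LIP, against 1.24 and 1.18 over all genes (CPM plus 0.5). Without CTL 94, Kif11, Top2a and Mki67 were called higher in LIP (log2 fold changes of 1.21, 1.14 and 0.96) and Cenpa lower (−0.49), and the median over the 35 genes became 0.93. Over all genes, 658 of 14343 were called in this fit, against 60 of 14064 with all libraries. Without CTL 89 it became −0.08, and 0 genes were called. The summed myeloid markers were likewise lowest in CTL 89 and highest in CTL 94, at 26.2, 22.8 and 37.9 CPM in CTL and 27.8, 28.1 and 33.7 CPM in LIP. Of the 14 myeloid markers S100a8 and S100a9 were at 0 in all libraries, and Mpo, made by myeloid progenitors, was at 0.301, 0.241 and 5.26 CPM in CTL and 0.689, 3.10 and 1.87 CPM in LIP. Without Mpo the sums were 25.9, 22.5 and 32.6 CPM in CTL and 27.1, 25.04 and 31.8 CPM in LIP. Most of each sum was Cst3, at 19.4, 16.3 and 20.9 CPM in CTL and 18.7, 14.5 and 17.5 CPM in LIP. The B-cell or plasma-cell sum had the same order in CTL, at 128, 117 and 143 CPM, against 114, 109 and 132 CPM in LIP. So did the sum of pancreatic acinar markers, at 1.51, 0.843 and 2.63 CPM in CTL, against 1.79, 31.2 and 8.42 CPM in LIP. The erythroid or megakaryocyte sum was 11.8, 10.2 and 10.9 CPM in CTL and 10.5, 11.3 and 10.0 CPM in LIP. In CTL the CD8+ T-cell or NK-cell sum was lowest in CTL 94, at 63.9, 64.6 and 53.4 CPM. Each of these lay above the LIP libraries, at 47.5, 45.2 and 49.97 CPM. The T-cell sum was 2788, 2846 and 2657 CPM in CTL and 2658, 2483 and 2709 CPM in LIP. The part of these differences in the levels of the mitosis genes was not tested.

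**Figure D4:**
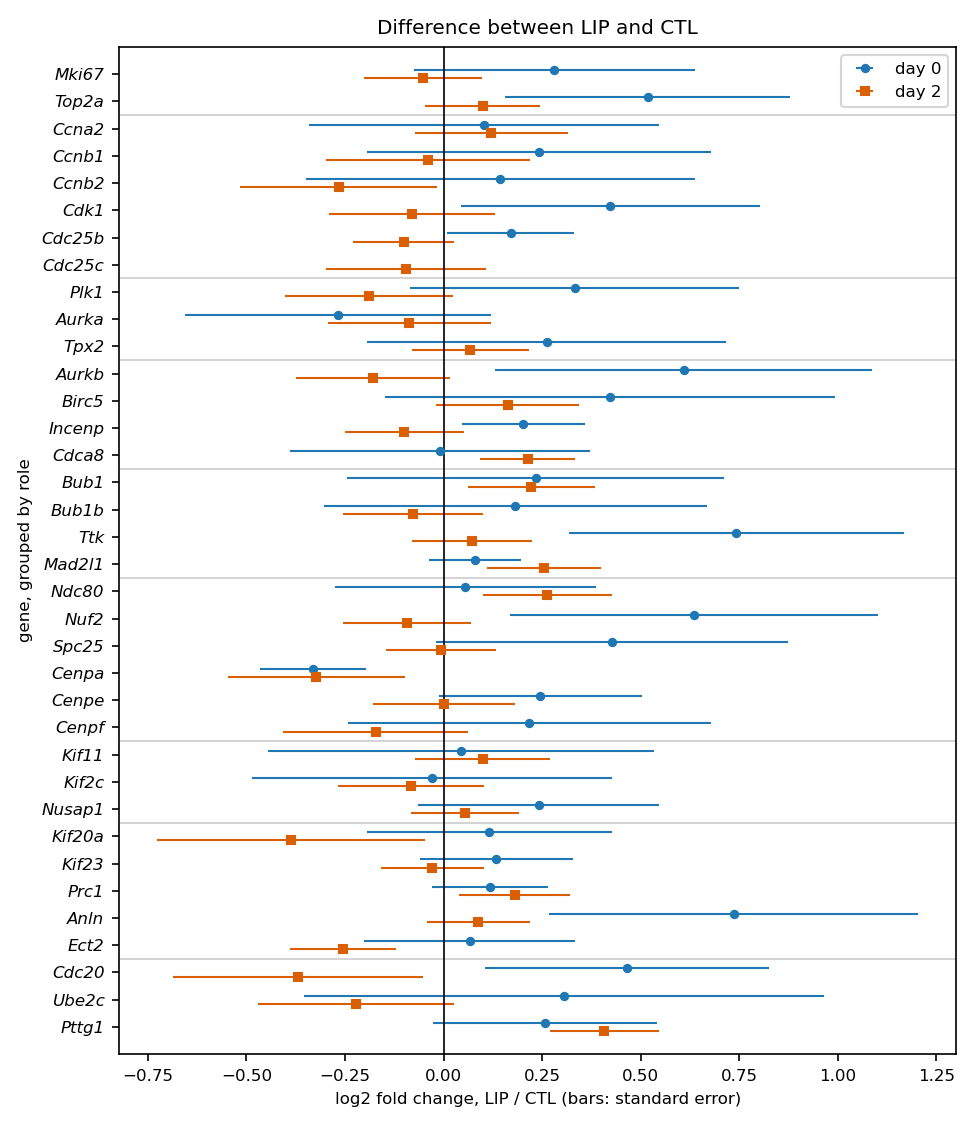
Log2 fold change of LIP over CTL for each mitosis gene (points) with its standard error (bars) on day 0 (blue circles) and day 2 (orange squares). On day 0 most points lie right of 0 with wide bars, on day 2 they scatter around 0 with narrower bars, and no gene passed an adjusted p of 0.05 on either day.

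On day 2, the question was whether stimulated cells of LIP mice differed in these genes from those of CTL mice. Of 36 genes tested, 0 were called (edgeR), as were 0.0% of 14041 genes, and 1 had an unadjusted p under 0.05, against 16.5% of all genes. DESeq2 called 0 of the 36 genes, and 1 had an unadjusted p under 0.05. The median log2 fold change was −0.05, against −0.01 over all genes, with 15 genes above 0 and 21 below, and the standard errors had a median of 0.17. The gene with the low unadjusted p was Pttg1, at 0.41 ± 0.14 (edgeR, adjusted p = 0.213), and the next highest were Ndc80 at 0.26 ± 0.16 and Mad2l1 at 0.25 ± 0.15. The groups separated in 2 genes, Pttg1 and Cdca8, both higher in LIP, against 21.5% of all genes that separated in either direction. The lowest were Kif20a at −0.39 ± 0.34, Cdc20 at −0.37 ± 0.32 and Cenpa at −0.32 ± 0.22. Mki67 was at −0.05 ± 0.15, Top2a at 0.10 ± 0.15, Ccnb1 at −0.04 ± 0.26, Cdk1 at −0.08 ± 0.21 and Plk1 at −0.19 ± 0.21. Aurkb was at −0.18 ± 0.20, Birc5 at 0.16 ± 0.18 and Cdc25b at −0.10 ± 0.13. By role, the median ran from −0.22 for the 3 genes of the anaphase-promoting complex and its substrates to 0.15 for the 4 checkpoint genes.

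Here the LIP libraries differed among themselves in an order that many of the genes shared. The ratio of the highest to the lowest library had a median of 1.44 over the 36 genes in LIP and 1.24 in CTL, close to the 1.34 and 1.25 over all genes. LIP 90 was the highest of the 6 libraries in 31 of the 36 genes (21.5% of all genes tested), and LIP 96 lay below the 3 CTL libraries in 22 (33.6% of all). LIP 96 and LIP 97 both lay below the 3 CTL libraries in 14 genes (24.7% of all), which were Ccnb1, Ccnb2, Cdk1, Aurka, Aurkb, Bub1b, Nuf2, Cenpa, Cenpe, Cenpf, Kif20a, Ect2, Cdc20 and Ube2c. In 11 of these, all but Ccnb2, Nuf2 and Ect2, LIP 90 lay above the 3 CTL libraries (6.60% of all genes). Relative to the CTL mean, LIP 96 was lowest in the genes of the anaphase-promoting complex and its substrates, by a mean of −0.58 on the log2 scale, in Plk1, Aurka and Tpx2 by −0.46 and in the genes of mitotic entry by −0.45. In LIP 96, Plk1, Aurka and Tpx2 and every gene of mitotic entry lay below the CTL mean. The means of the first role and of the checkpoint genes join genes that went opposite ways. Pttg1 of the first role lay above every CTL library in LIP 96, whereas Cdc20 and Ube2c lay far below. In the checkpoint genes, with a mean of −0.03, LIP 96 lay below every CTL library for Bub1b and above every CTL library for Mad2l1. LIP 90 was above the CTL mean in every role, from 0.23 to 0.41.

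Without LIP 90, 5 of the 36 genes were called lower in LIP, namely Kif20a (−0.95), Cdc20 (−0.86), Ube2c (−0.56), Cenpf (−0.50) and Ect2 (−0.37). Over all genes, 2014 of 14453 were called in either direction in this fit, so the 5 are no larger a share than that of all genes. Without any other library of day 2, 0 of the 36 genes were called. LIP 90 also held the most counts, 12866718, with 12175077 in LIP 96 and 8691699 in LIP 97. The sum of 12 B-cell or plasma-cell markers was 24.99 CPM in LIP 90 against 76.2 and 73.2 CPM in LIP 96 and 97, and 26.9, 30.5 and 66.2 CPM in CTL. CTL 97, the CTL library with the highest sum of these markers, was the highest CTL library in 28 of the 36 mitosis genes (39.1% of all genes). The sum of CD8+ T-cell or NK-cell markers was 8.60 CPM in LIP 90 against 23.6 and 14.5 CPM in LIP 96 and 97. In CTL it was 8.67, 11.1 and 10.9 CPM. The part of these differences between libraries in the levels of the mitosis genes was not tested.

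**Figure D5:**
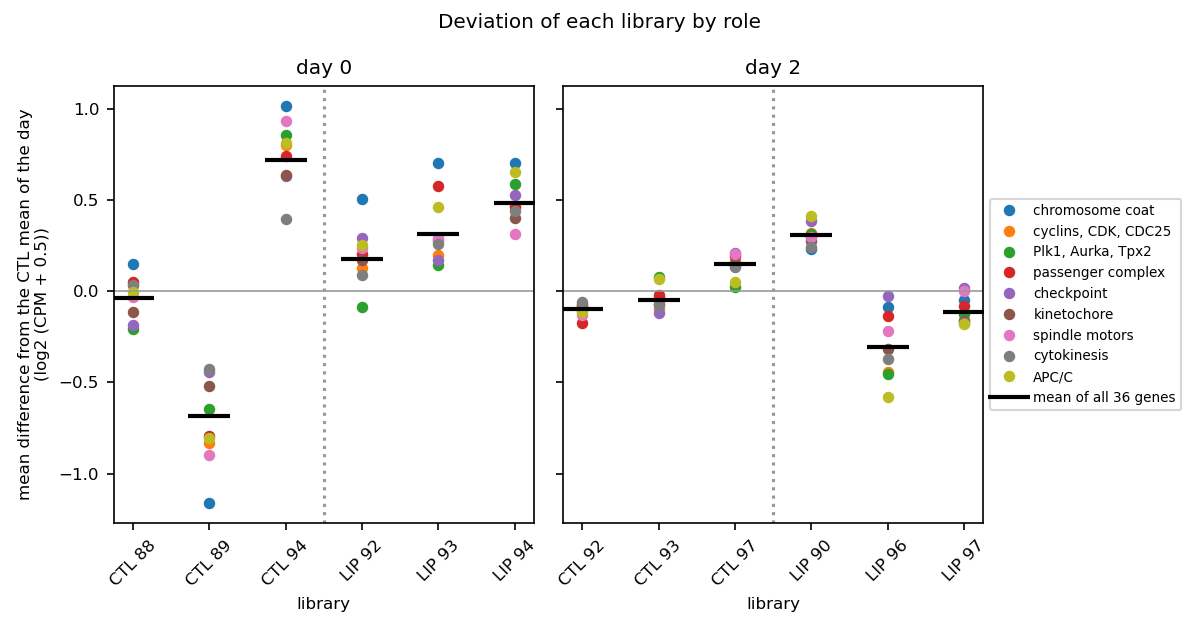
Mean difference of each library from the CTL mean of its day, in log2 of CPM plus 0.5, for the genes of each role (coloured points) and for all 36 genes (black bars), with day 0 in the left panel and day 2 in the right panel. On day 0 CTL 89 and CTL 94 lie on opposite sides of all LIP libraries in the mean of all genes. On day 2 LIP 90 lies above and LIP 96 and LIP 97 below the 3 CTL libraries in that mean. LIP 97 lies only just below CTL 92, and above it in some roles.

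The summed CPM of the 36 genes differed between LIP and CTL by a mean of 0.27 on the log2 scale on day 0 and by 0.00032 on day 2, with spreads between libraries (pooled SD, n = 3 a group) of 0.44 and 0.20. The ratio to the replication genes on day 2 differed by −0.09, with a spread of 0.14. Each of these differences was smaller than the spread, but not under every alternative. The difference of day 0 was 0.59 without CTL 94, past the spread, and −0.02 without CTL 89. The difference of the ratio on day 2 was −0.16 without LIP 90, −0.14 without CTL 97 and −0.16 from means of log2 CPM, each past the spread, and 0.00635 without LIP 96. As the members were chosen with earlier results of these data known, no p-value is given for them.

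Whether the effect of LIP changed with stimulation was tested as the difference of the LIP effect between days. Of the 36 genes, 0 were called, as were 0.0517% of 15475 genes, and 0 had an unadjusted p under 0.05, against 15.9% of all genes (edgeR). DESeq2 called 0 of the 36 genes, against 3.36% of all genes, and 0 had an unadjusted p under 0.05, against 14.3% of all genes. The median was −0.25, with 25 genes below 0 and 11 above, and the standard errors had a median of 0.47. The lowest values were those of Cdc20 (−0.82 ± 0.56), Aurkb (−0.78 ± 0.52) and Nuf2 (−0.71 ± 0.48), and the highest those of Cdc25c (0.32 ± 0.82), Cdca8 (0.24 ± 0.37) and Ndc80 (0.22 ± 0.38). Mki67 was at −0.32 ± 0.48, Top2a at −0.40 ± 0.47, Ccnb1 at −0.27 ± 0.57, Cdk1 at −0.49 ± 0.46 and Plk1 at −0.51 ± 0.49. Birc5 was at −0.25 ± 0.61, Cdc25b at −0.25 ± 0.23 and Pttg1 at 0.16 ± 0.28. Leaving out single libraries moved the median from −0.98 without CTL 94 of day 0 to 0.08 without CTL 89 of day 0.

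Other genes of mitosis and its control, taken from lists that share no member with the 36, mostly rose with stimulation. Shares over all 15475 genes were 35.3% called higher and 33.7% lower in CTL, and 36.6% and 35.2% in LIP, and the genes called lower are named here because they were few, fewer in each list than these shares. Of 32 other kinetochore and centromere genes tested, 31 were called higher in CTL and 31 in LIP. All 8 condensin genes were called higher in both. Of 33 other mitotic kinesins and spindle genes, 31 were called higher and 1 lower in each group, the latter being Numa1, a spindle-pole protein (−0.84 in CTL and −0.66 in LIP). Of 15 cohesin genes, 10 were called higher in CTL and 11 in LIP, and 2 lower in both, Mau2 (−0.93 and −1.06) and Nipbl (−0.54 and −0.36), which together load cohesin onto chromatin. Of 17 genes of the anaphase-promoting complex, 13 were called higher and 1, Anapc16, lower in CTL (−0.79), and 16 higher in LIP. Of 16 regulators of mitotic entry, 13 were called higher in CTL and 15 in LIP. Of 24 regulators of transcription in G2 and M phase, 18 were called higher in CTL and 19 in LIP, and 1 lower in each, E2f5 in CTL (−0.57) and Rbl2 in LIP (−0.82).

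Foxm1, the activator of late cell cycle genes, rose by 3.69 ± 0.20 on the log2 scale in CTL and 3.87 ± 0.20 in LIP, and Mybl2, which encodes B-Myb, by 5.32 ± 0.25 and 4.39 ± 0.24. E2f1, an activator of S-phase genes, rose by 3.69 ± 0.22 and 3.37 ± 0.21, Wee1, the kinase that inhibits Cdk1, by 3.33 ± 0.27 and 3.02 ± 0.27, and Fbxo5, an inhibitor of the anaphase-promoting complex, by 2.90 ± 0.19 and 2.94 ± 0.19. Fzr1, the co-activator that keeps the complex active after mitosis, rose by 1.54 ± 0.15 and 1.52 ± 0.15. Cdkn1a, the p21 inhibitor of cyclin-dependent kinases, was at 262, 303 and 215 CPM in CTL and 212, 133 and 128 CPM in LIP on day 2. On day 0 it was at or near the limit of detection, between 0.241 and 0.704 CPM. In all 3 LIP libraries of day 2 it lay below the 3 CTL libraries, with a log2 fold change of −0.74 ± 0.21 that was not called by edgeR (adjusted p = 0.171).

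Of the 8 lists together, replication included, edgeR called 0 of 181 genes in LIP over CTL on day 0, 0 of 194 on day 2 and 0 of 194 in the difference between days, with 24, 27 and 27 genes at an unadjusted p under 0.05. These are no larger shares than the 13.9%, 16.5% and 15.9% of all genes. DESeq2 called 1, 3 and 6 genes, against 1.44%, 3.45% and 3.36% of all genes. It gave 18, 26 and 24 genes of the lists an unadjusted p under 0.05, against 9.31%, 15% and 14.3% of all genes, and no adjusted p for 103 of the 181 genes on day 0. The called genes are no larger shares of the lists than of all genes. Those it called were Dbf4 on day 0, Cdkn1a, Nfya and Rbl2 on day 2, and Dbf4, Lin54, Nfya, Rbl1, Rbl2 and Wapl in the difference between days, so these calls rest on the choice of tool. By edgeR, the lowest p-values on day 0 were those of Dbf4 (−0.45 ± 0.09, adjusted p = 0.0584) and Cdc7 (0.41 ± 0.10, adjusted p = 0.128), the subunits of the kinase that fires replication origins, and of Nfya (−0.27 ± 0.07, adjusted p = 0.139), a subunit of NF-Y. On day 2 they were those of Rbl2 (−0.53 ± 0.13, adjusted p = 0.142), which encodes the p130 protein of DREAM, Oip5 (0.53 ± 0.15, adjusted p = 0.162), a factor that loads Cenpa, and Lin54 (0.52 ± 0.15, adjusted p = 0.168). Oip5 overlaps Nusap1 on the opposite strand. In the difference between days they were those of Lin54 (0.91 ± 0.18, adjusted p = 0.0776), Rbl2 (−0.68 ± 0.16, adjusted p = 0.0876) and Nfya (1.02 ± 0.25, adjusted p = 0.0889). The groups did not overlap in 31 of the 181 genes on day 0 and 36 of the 194 on day 2, against 19.1% and 21.5% of all genes, which are larger shares. Lin54, the CHR-binding subunit of MuvB, was at 44.1, 47.8 and 39.5 CPM in CTL and 34.6, 30.8 and 35.5 CPM in LIP on day 0, and at 87.9, 85.2 and 69.0 CPM in CTL and 99.5, 127 and 124 CPM in LIP on day 2. Its groups did not overlap on either day, with LIP lower on day 0 and higher on day 2. Rbl2 was at 225, 189 and 232 CPM in CTL and 235, 237 and 249 CPM in LIP on day 0, with every LIP library above the CTL libraries. On day 2 it was at 230.2, 185 and 171 CPM in CTL and 137, 142 and 129.8 CPM in LIP, with every LIP library below. Nfya was at 89.5, 84.0 and 90.1 CPM in CTL and 72.1, 74.6 and 70.4 CPM in LIP on day 0, with every LIP library below. On day 2 Nfya was at 75.8, 70.3 and 90.5 CPM in CTL and 91.6, 173 and 131 CPM in LIP, with every LIP library above.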

How the data were processed

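Spleen CD4+ T cells of 4 groups were measured by paired-end RNA sequencing, after ribosomal RNA depletion with a directional kit. The authors deposited expected counts per gene from RSEM 1.3.0. The submitters' processing notes also name FastQC 0.11.9, Trimmomatic 0.38, Bowtie2, edgeR and GRCm39, and the study's methods name another Trimmomatic version and HISAT2. The deposited tables for each day also hold the authors' normalized signals, log2 fold changes, p-values and false discovery rates, of which none was used, and 2 further columns, of libraries without a label here, were left out.

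The expected counts were rounded to whole numbers. Genes with low counts were removed with filterByExpr, libraries were scaled with TMM factors, and edgeR 4.0.16 (R 4.3.3) was run with its quasi-likelihood test and Benjamini-Hochberg adjustment over all genes tested. Changes with stimulation and the difference of the LIP effect between days were fitted on all 12 libraries, and LIP against CTL on the 6 libraries of each day. A standard error is the log2 fold change divided by the square root of the F statistic. Replicate pairs were compared by chi-square, and none of the 12 pairs was alike within sampling noise (2.82 to 43.6 per degree of freedom). Alternatives were DESeq2 1.42.0, RLE factors, 2 other filters, other sets of libraries in the fit, leaving out each library, the replicate number as a block (added after seeing the data) and, for summed levels only, total counts and means of log2 CPM. The fits were tested on simulated data. Tables and plots used Python 3.11.15, pandas 2.3.3, numpy 2.4.6 and matplotlib 3.10.9. Positions are those of GENCODE M39.

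The members and the gene lists were chosen with earlier results of these data known. Values of every library are given for Mki67, Top2a, Ccnb1, Cdk1, Plk1, Aurkb, Birc5, Cdc20, Cdc25b and Pttg1, for the 3 highest and 3 lowest members of each comparison and for members called between LIP and CTL. Kif11 was added after its values were seen. Of the other lists, the 3 genes with the lowest p in each LIP comparison, 7 regulators and, after their values were seen, the genes that fell and those that DESeq2 called are named. Markers of T cells, CD8+ T or NK cells, B cells, myeloid cells, erythroid cells and acinar cells were summed in each library. The erythroid and megakaryocyte markers summed to 4.84 to 11.8 CPM and the acinar markers to 0.843 to 31.2 CPM, and Klra8 was at 0 in all libraries.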

Additional observations from a re-analysis of the deposited data

How the results depend on the processing

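The rise of all 36 genes with stimulation held in CTL and in LIP under every alternative run for it, which were RLE factors, DESeq2, both other filters, the fit of only 6 libraries, the replicate block and leaving out each library, and with at least 10 counts required in every library it held for all 24 genes left. Of the LIP comparisons, the members called on day 0 rose from 0 to 1, Top2a, with no filter on low counts, and leaving out single libraries gave 0 to 4, the 4 being without CTL 94. On day 2, leaving out single libraries gave 0 to 5, the 5 being without LIP 90. When CTL 94 of day 0 and LIP 90 of day 2 were left out together, 13 of the 36 genes were called in the difference between days, all with a lower LIP effect on day 2 than on day 0, as were 1682 of 15871 genes in all. Both were chosen after seeing that they held the highest levels of these genes in their groups, so this count describes the dependence on these libraries and is no test of the groups. No alternative reversed a called result. Over all genes, the calls on day 0 were 60, against 202 with DESeq2, 645 with no filter, 12 in a fit of all 12 libraries and 658 without CTL 94. On day 2 they were 0, against 485 with DESeq2, 662 with no filter, 775 in a fit of all 12 libraries and 2014 without LIP 90. In the difference between days they were 8, against 520 with DESeq2, 815 with no filter and 1596 without LIP 90. The cause of these changes was not tested. No paired analysis was possible within a day because LIP and CTL share only 1 replicate number there. In the fit of all 12 libraries, 4 numbers recur across groups, and a replicate block, added after seeing the data, left 1 degree of freedom. With it 36 genes were called with stimulation in CTL, 36 in LIP and 0 in the difference between days (3 at an unadjusted p under 0.05), and over all genes 6847, 6884 and 550 were called, against 10676, 11111 and 8. The block moved 14 of the 36 folds by over 1.5-fold in CTL, among them those of Ube2c (to 4.55), Birc5 (3.94), Mki67 (3.88) and Top2a (4.76), and 2, Kif20a and Ndc80, in LIP. Deviations of libraries with the same number correlated at −0.05 to 0.11 over 15475 genes. Numbers 92 and 93 join LIP with CTL mice, so those libraries did not share an animal. Whether libraries with the same number shared a batch is not stated, and these correlations cannot settle it. On day 0, 12 of the 36 genes had under 10 counts in some library, which limits what could be seen there.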
